A study of Mus musculus with 2 samples.

Results

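The cells described here were Sema3c Cd55 Pi16 adventitial fibroblasts, called Sema3c fibroblasts below, from 2 single-cell RNA libraries of mouse abdominal aorta. The Gsdme-KO library came from mice with a global Gsdme deletion and the WT library from C57BL/6J mice. Aneurysm had been induced in both with porcine pancreatic elastase, so neither library shows an untreated aorta, and BD Rhapsody, a microwell system that tags each transcript with a unique molecular identifier (UMI), was used for both. The sources used here do not give age, sex, time after elastase, the number of mice per library, the deleted stretch of Gsdme or the strain background of the deleted mice. The cells were chosen by their measured UMIs. A Sema3c fibroblast had 500 UMIs or more from 250 genes or more, of which no more than 25% were mitochondrial. Col3a1, Col1a2 and Dcn together made up at least 0.5% of its UMIs, it held at least 3 of the 7 genes Pdgfra, Lum, Dpt, Serpinf1, Clec3b, Mfap5 and Fbln1, and it held no UMI of Myh11. It also held at least 2 of Sema3c, Cd55, Efhd1, Sbsn, Pcsk6, Bmp3 and Pi16, and more of these 7 than of C7, Mmp3, Gdf10, Sfrp4, Shisa3, Abcc9 and Fmo2. In all, 1306 of 16403 kept cells met this rule, 822 of 8784 in Gsdme-KO and 484 of 7619 in WT. The most similar cells, called C7 fibroblasts below, passed the same gate with at least 2 of the second 7 genes and more of them than of the first, and numbered 744 in Gsdme-KO and 442 in WT.

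Fibroblasts of the aortic adventitia make collagen and other matrix, and they release chemokines that draw leukocytes into the wall. Across mouse tissues, fibroblasts that carry Pi16 and Dpp4 lie around larger vessels and are known as a progenitor-type population with a sparse matrix programme, while the fibroblasts beside them carry more specialised matrix genes. Gsdme encodes gasdermin E, a pore-forming protein that caspase 3 can cleave and that can turn apoptosis into lytic death.

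With 1 library in each group, no test over samples was possible, and no p-value is given. UMIs were summed over the cells of a group and scaled by the summed UMIs of the group to CPM, and a ratio is the Gsdme-KO CPM over the WT CPM with its exact 95% interval. Intervals cover counting error only, UMIs of the same cell are not independent, and an interval is too narrow for a gene that few cells hold. A gene was called higher or lower where the ratio was at least 1.5-fold and the interval lay on 1 side of 1. Sema3c fibroblasts held 9414618 UMIs in Gsdme-KO and 4650077 in WT, with medians of 10271 and 8837 UMIs per cell, so the same gene had smaller counting error in Gsdme-KO. The libraries shared 73 cell barcodes, and 1 of them marked a Sema3c fibroblast in both. Gsdme itself (ENSMUSG00000029821, chr6:50188888-50263862, minus strand, mm10) had 6 UMIs in Gsdme-KO and 15 in WT Sema3c fibroblasts, at 0.637 and 3.23 CPM (ratio 0.198, 0.0628 to 0.539). Outside fibroblasts it stood at 3.53 CPM in Gsdme-KO and 6.17 CPM in WT (ratio 0.572, 0.450 to 0.725), so the library labelled Gsdme-KO still held Gsdme counts. Tags outside the deleted stretch, which is not known here, check nothing. By annotated span Gsdme also overlaps Mpp6 on the other strand, and whether strand was used in counting is not known.

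Markers of other cell types were low in Sema3c fibroblasts and differed between the libraries. The 8 macrophage markers summed to 297 CPM in Gsdme-KO and 543 CPM in WT, against 10213 and 9581 CPM in macrophage-marker cells, and none of the 8 was at 0. At least 3 of them were found in 126 of 822 cells (15.3%) in Gsdme-KO and in 149 of 484 cells (30.8%) in WT. The neutrophil list summed to 52.6 CPM in Gsdme-KO and 129.7 CPM in WT, and the T cell list to 5.20 and 21.5 CPM. The dendritic cell list ran the other way, with 37.0 CPM in Gsdme-KO and 26.5 CPM in WT. The B cell list summed to 461 CPM in Gsdme-KO and 590.3 CPM in WT, nearly all of it from Ebf1, which is not confined to B cells. WT thus held more macrophage, neutrophil and T cell marker RNA in these cells, and its part in the differences below was not tested beyond the counts given without the cells that held 3 macrophage markers. The mesothelial list summed to 179 CPM in Gsdme-KO and 281 CPM in WT, of which Wt1 alone gave 115 and 138 CPM, and the smooth muscle list to 45.2 and 52.5 CPM. Scrublet, a doublet caller, marked 1 of 8784 kept cells in Gsdme-KO and 0 of 7619 in WT, so it did not work here and doublets were not removed.

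The genes of the rule show what kind of cell was chosen, and their values are a description. Sema3c (ENSMUSG00000028780, chr5:17574281-17730268, plus strand), which encodes a secreted semaphorin, stood at 992 CPM in Gsdme-KO and 1062 CPM in WT, and at 67.5 and 105 CPM in C7 fibroblasts. Cd55 (ENSMUSG00000026399, chr1:130439027-130462744, minus strand), the complement decay-accelerating factor, stood at 1113 CPM in Gsdme-KO and 980.2 CPM in WT, against 143 and 157 CPM in C7 fibroblasts. Pi16 (ENSMUSG00000024011, chr17:29317680-29330593, plus strand), which encodes peptidase inhibitor 16, separated the groups least, with 1041 CPM in Gsdme-KO and 1151 CPM in WT against 662 and 544 CPM. Efhd1 and Bmp3 were near absent from C7 fibroblasts: Efhd1 had 101 CPM in Gsdme-KO and 121 CPM in WT, against 1.81 and 2.43 CPM in C7 fibroblasts, and Bmp3, a member of the BMP family, had 181 and 159 CPM against 4.92 and 7.01 CPM. Pcsk6, a proprotein convertase, had 453 CPM in Gsdme-KO and 582 CPM in WT, and Sbsn had 185 and 173 CPM. Sema3c was found in 91.0% of Gsdme-KO and 88.8% of WT Sema3c fibroblasts. Neutrophil-marker cells, which should lack it, held 12.02 CPM in Gsdme-KO and 12.3 CPM in WT. All 6 marker genes named for these cells were therefore above C7 fibroblasts in both libraries, Pi16 by the least. Fibroblast genes of the gate were present, with Dpt at 1185 CPM in Gsdme-KO and 1182 CPM in WT and Pdgfra at 354 and 484 CPM.

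**Figure D1:**
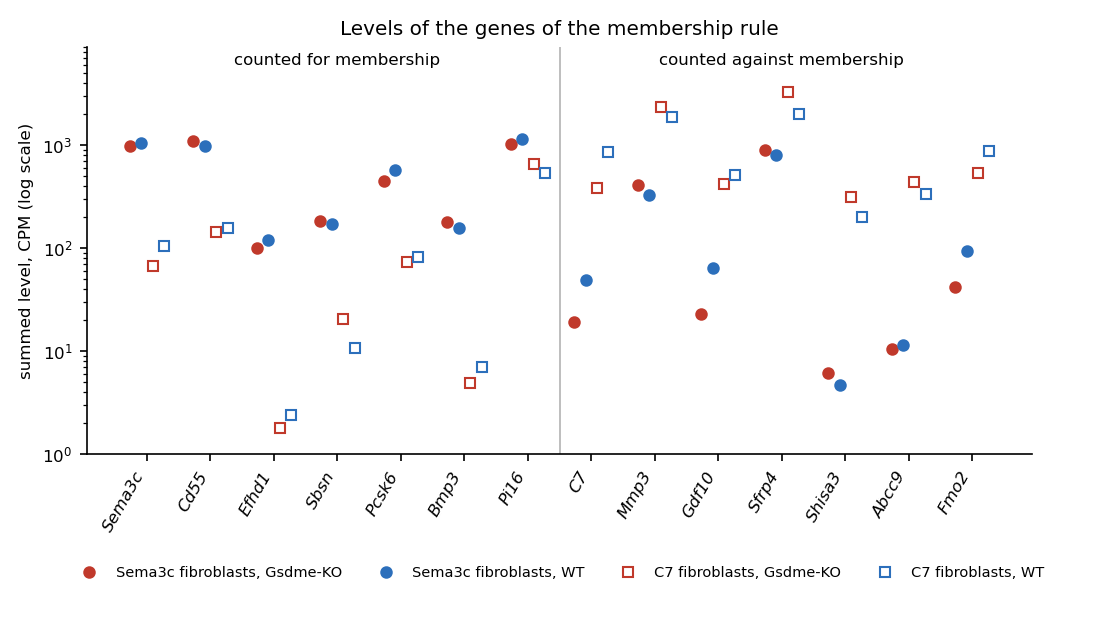
Summed level in CPM (log axis) of the 7 genes counted for membership and the 7 counted against it, in Sema3c fibroblasts (filled circles) and C7 fibroblasts (open squares) of the Gsdme-KO (red) and WT (blue) libraries; each point is 1 library with no error bar. Pi16 lies closest between the groups, and Sfrp4 stays near 1000 CPM in Sema3c fibroblasts (894 CPM in Gsdme-KO and 811 CPM in WT).

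Membership was graded, not all or none. The genes counted against membership were low but present: C7 had 19.2 CPM in Gsdme-KO and 49.0 CPM in WT, Mmp3, the stromelysin gene, had 409 and 326 CPM, and Sfrp4, a secreted Wnt antagonist, had 894 and 811 CPM. At least 2 of these 7 were found in 491 Sema3c fibroblasts (59.7%) in Gsdme-KO and 259 (53.5%) in WT. All 7 positive genes were found in 219 cells (26.6%) in Gsdme-KO and 93 cells (19.2%) in WT. Just inside the threshold, where the positive genes outnumbered the others by 1, stood 121 cells (14.7%) in Gsdme-KO and 89 (18.4%) in WT, with Sema3c at 288 and 351 CPM and Pi16 at 504 and 639 CPM. Just outside it, with equal numbers, stood 103 cells in Gsdme-KO and 83 in WT, with Sema3c at 179.6 and 240.0 CPM and Pi16 at 837 and 605 CPM. Sema3c was thus higher just inside than just outside in both libraries, whereas Pi16 was lower just inside in Gsdme-KO and close to equal in WT. Cd55 was at 387 CPM just inside and 273 CPM just outside in Gsdme-KO, but at 371 CPM just inside and 560.1 CPM just outside in WT, so neither gene separated these cells in both libraries.

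Sema3c fibroblasts made up a larger share of all kept cells in Gsdme-KO, but about the same share of fibroblasts. They were 9.36% of kept cells in Gsdme-KO (8.76% to 9.99%) and 6.35% in WT (5.82% to 6.92%), a ratio of 1.47 (1.32 to 1.64). Among all gated fibroblasts they were 46.7% in Gsdme-KO (44.3% to 49.0% of 1761 cells) and 44.8% in WT (41.8% to 47.8% of 1080 cells), a ratio of 1.04 (0.959 to 1.13). After each cell was thinned to 2000 UMIs before the rule was applied, the shares of kept cells were 9.50% in Gsdme-KO and 6.70% in WT (ratio 1.42). With cells that held none of the 7 negative genes, 50 in Gsdme-KO and 46 in WT, the ratio of shares was 0.943 (0.632 to 1.41). Shares of dissociated cells also depend on how well each cell type was freed from the wall, which was not measured.

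Set against C7 fibroblasts of the same library, Sema3c fibroblasts carried more of the genes of the Pi16 and Dpp4 type, and less elastin and matrix Gla protein. Of 9764 genes tested, 4.56% were called higher than in C7 fibroblasts in both libraries and 3.88% lower, 8.44% in all. Of 27 tested genes of a list typical of Pi16 and Dpp4 fibroblasts, 19 were higher and 0 lower. The rule chose the cells by this contrast, so these counts describe the choice of cells and are no separate finding. Dpp4 (ENSMUSG00000035000, chr2:62330073-62412231, minus strand), which encodes the membrane protease dipeptidyl peptidase 4, stood at 299.6 CPM in Gsdme-KO and 462 CPM in WT, against 24.9 and 43.9 CPM in C7 fibroblasts, so it was 12.04 fold higher in Gsdme-KO and 10.5 fold higher in WT. The receptor tyrosine kinase gene Tek was 10.1 fold higher in Gsdme-KO and 7.44 fold in WT, and the phospholipase gene Pla1a 6.43 fold in Gsdme-KO and 5.99 fold in WT. Cd34 and Cd248, both surface markers of stromal progenitors, were 1.796 and 2.85 fold higher in Gsdme-KO and 1.87 and 2.80 fold in WT. Ly6a, another progenitor marker, was present at 4328 CPM in Gsdme-KO and 2655 CPM in WT but only 1.36 and 1.26 fold above C7 fibroblasts, which was not called.

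The 10 genes farthest above C7 fibroblasts included Igfbp5, Sema3e and Bmp6. Igfbp5 (ENSMUSG00000026185, chr1:72857932-72874884, minus strand), an insulin-like growth factor binding protein, stood at 1256 CPM in Gsdme-KO and 1734 CPM in WT, against 65.8 and 119 CPM in C7 fibroblasts. That is 19.1 (17.5 to 20.9) fold in Gsdme-KO and 14.6 (13.2 to 16.1) fold in WT. Akr1c18, which breaks down progesterone, stood at 40.4 CPM in Gsdme-KO and 51.8 CPM in WT. Its folds over C7 fibroblasts were 156 (42.8 to 1291) in Gsdme-KO and 64.1 (21.7 to 313) in WT, wide because C7 fibroblasts held almost none. Sema3e, a second class 3 semaphorin and a ligand of plexin D1, stood at 62.9 CPM in Gsdme-KO and 75.3 CPM in WT (44.1 and 27.9 fold). Bmp6, a BMP ligand, stood at 52.4 CPM in Gsdme-KO and 53.3 CPM in WT (40.4 and 24.7 fold). Both libraries thus gave the same order of magnitude for each of these 4 genes. Dmkn and Krtdap, known from differentiating epidermis as is Sbsn, belonged to the same 10 genes. Dmkn was at 39.9 fold in Gsdme-KO and 36.4 fold in WT. Krtdap was at 41.5 fold in WT. In Gsdme-KO, where C7 fibroblasts had 0 UMIs of Krtdap, the lower interval end was 29.1 fold. With 3 counts in place of 0 it was at 36.3 fold there. Sytl2, a regulator of vesicle transport, Olfml2a and Limch1 completed the 10.

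Genes farthest below C7 fibroblasts included elastic and calcification-related matrix genes. Eln (ENSMUSG00000029675, chr5:134702593-134747323, minus strand), which encodes tropoelastin, stood at 270.2 CPM in Gsdme-KO and 329 CPM in WT, against 1725 and 1564 CPM in C7 fibroblasts, or 0.157 fold in Gsdme-KO and 0.210 fold in WT. Mgp, an inhibitor of calcification, stood at 126 CPM in Gsdme-KO and 253 CPM in WT, against 1131 and 1186 CPM (0.111 and 0.213 fold). The collagen receptor subunit gene Itga1 was also among the 10, with 0.142 fold in Gsdme-KO and 0.169 fold in WT, as was Itgbl1 with 0.131 fold in Gsdme-KO and 0.198 fold in WT. The elastic fibre list was split. Fbn1, the fibrillin scaffold of microfibrils, was 2.75 fold higher than in C7 fibroblasts in Gsdme-KO and 3.06 fold in WT, and Fbn2, Efemp1, Emilin2, Ltbp1 and Loxl2 were also higher. Eln, Mfap4, Ltbp4 and Emilin1 were lower, so Sema3c fibroblasts carried the fibrillin genes without the elastin level of their neighbours. In the semaphorin and axon guidance list 7 of 25 genes were higher and 6 lower: Efnb2 was 3.06 and 4.52 fold higher in Gsdme-KO and WT, whereas Slit2, a ligand of Robo receptors, was at 0.218 and 0.295 fold and Ntn1, the netrin 1 gene, at 0.347 and 0.366 fold. Of 23 collagen genes, 1 was higher and 11 were lower.

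Sema3c fibroblasts also varied among themselves. The Fano factor, the variance over the mean of a gene across cells thinned to 2000 UMIs, had a median of 1.16 in Gsdme-KO and 1.17 in WT over 1545 genes, and 771 Gsdme-KO and 447 WT cells were deep enough. It was highest, by the lower of the libraries, for Col1a1 (18.0 in Gsdme-KO and 18.6 in WT), the chemokine gene Cxcl14 (20.4 and 17.0) and Igfbp5 (16.0 and 18.8). Col1a1 was found in nearly all cells (99.4% in Gsdme-KO and 98.7% in WT), whereas the tenth of cells with the most Cxcl14 held 100% of its UMIs in Gsdme-KO and 99.4% in WT. Cxcl14 thus marked a minority. Col8a1, Mgp, Sparc, Eln, Tnfaip6 and the metallothionein gene Mt2 were also among the 12 most variable genes. So were Abi1 and the macrophage gene Lyz2, whose Fano factor was 8.88 in Gsdme-KO and 6.29 in WT.

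Igfbp5 divided the cells. At 2000 UMIs it was found in 302 of 771 cells (39.2%, 35.7% to 42.7%) in Gsdme-KO and in 196 of 447 cells (43.8%, 39.2% to 48.6%) in WT, against 6.399% and 4% of C7 fibroblasts and 1.16% and 2.22% of neutrophil-marker cells. The intervals of the 2 libraries overlapped. Levels in cells with Igfbp5 were set over those in cells without it. The fold was 2.83 in Gsdme-KO and 3.57 in WT for Bmp3, 2.62 in Gsdme-KO and 2.90 in WT for Sema3c, 2.55 in Gsdme-KO and 3.30 in WT for Sema3e and 2.09 in Gsdme-KO and 1.86 in WT for Dpp4. For Igf1, the insulin-like growth factor gene, it was 0.529 in Gsdme-KO and 0.578 in WT, for the Wnt antagonist gene Sfrp1 0.319 in Gsdme-KO and 0.341 in WT, and for Lpl, the lipoprotein lipase gene, 0.469 in Gsdme-KO and 0.442 in WT. Cells with Igfbp5 thus had more Sema3c and Dpp4 and less Igf1 in both libraries. Bmp3 and Sema3c are genes of the rule, and cells with Igfbp5 held a median of 6 of its 7 membership genes against 5 in the rest in both libraries. These genes were chosen after their values were seen.

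A small second set carried matrix genes of another kind. Col8a1, Cxcl14, Thbs4, Comp, Cpxm2, Itgbl1 and Mgp were chosen after their values were seen, and at least 3 of the 7 were found in 34 of 771 cells (4.41%, 3.07% to 6.11%) in Gsdme-KO and in 39 of 447 cells (8.72%, 6.28% to 11.7%) in WT. C7 fibroblasts met this in 25.3% of cells in Gsdme-KO and 19.2% in WT, and neutrophil-marker cells in 0 of 346 in Gsdme-KO and 0 of 315 in WT, with upper bounds of 1.06% and 1.16%. The share in Sema3c fibroblasts was lower in Gsdme-KO than in WT and in C7 fibroblasts it was higher, where the intervals overlapped (22.1% to 28.8% in Gsdme-KO and 15.5% to 23.5% in WT). Within Sema3c fibroblasts these cells carried more C1qtnf3 (fold 47.1 in Gsdme-KO and 68.0 in WT), Fmod, a small leucine-rich proteoglycan (fold 27.1 in Gsdme-KO and 29.5 in WT), Smoc2, a matricellular protein (fold 17.4 in Gsdme-KO and 14.9 in WT), and Col12a1 (fold 26.6 in Gsdme-KO and 22.97 in WT) than the rest. They carried less Sema3c (fold 0.342 in Gsdme-KO and 0.347 in WT), Cd55 (fold 0.188 in Gsdme-KO and 0.291 in WT) and C3, the central complement gene (fold 0.301 in Gsdme-KO and 0.338 in WT), but not less Pi16 (fold 1.12 in Gsdme-KO and 1.71 in WT). They held a median of 4 of the 7 membership genes in both libraries, against 6 in Gsdme-KO and 5.5 in WT for the rest. These cells thus met the rule with fewer of its genes.

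**Figure D2:**
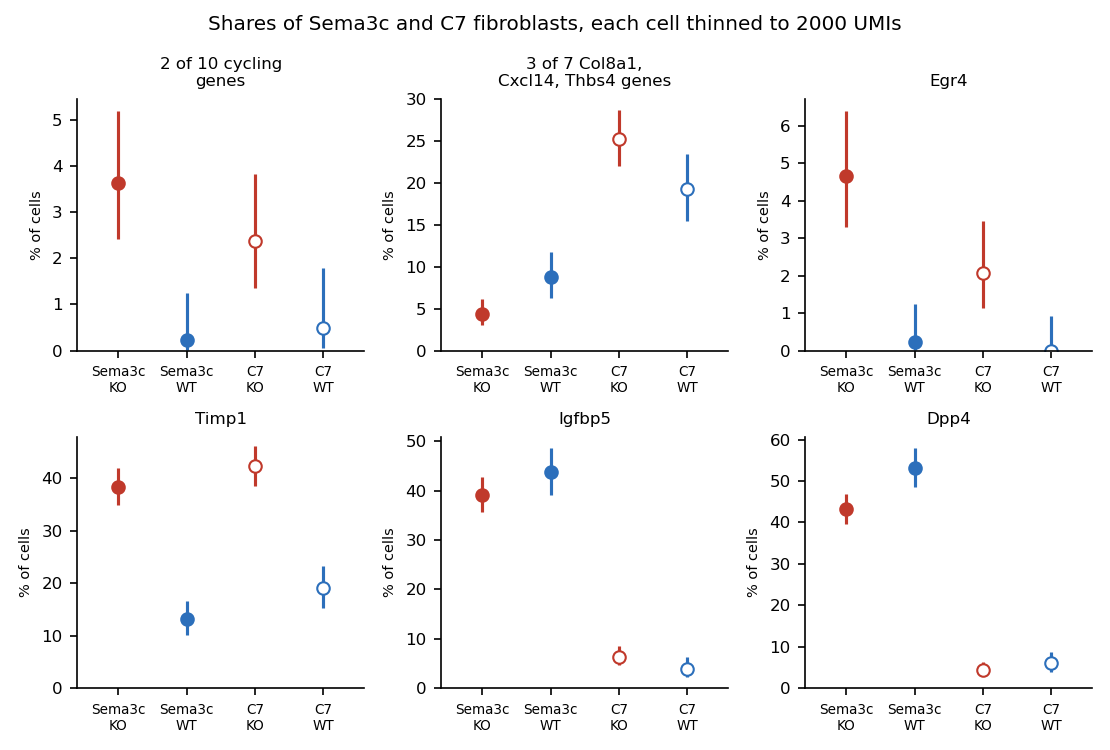
Share of cells in percent, each cell thinned to 2000 UMIs, that held at least 2 of 10 cycling genes, at least 3 of the 7 Col8a1, Cxcl14 and Thbs4 type genes, Egr4, Timp1, Igfbp5 or Dpp4, in Sema3c fibroblasts (filled points) and C7 fibroblasts (open points) of Gsdme-KO (red) and WT (blue); lines are exact 95% intervals for counting error. Cycling, Egr4 and Timp1 shares lie higher in Gsdme-KO in both cell groups, Dpp4 and Igfbp5 separate the cell groups, and the Col8a1 type share runs in opposite directions, with overlapping intervals in C7 fibroblasts.

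Between the libraries, most genes of Sema3c fibroblasts lay within 1.5-fold. Of 10761 genes tested, 452 (4.2%) were called higher in Gsdme-KO and 1113 (10.3%) lower, 14.5% in all. The counts of each gene list below are to be read beside these shares, except those under other settings. Without the cells that held 3 macrophage markers, 421 of 9994 tested genes were higher and 1019 lower. With cells thinned to 2000 UMIs before the rule was applied, 199 of 5155 were higher and 381 lower. List counts under those settings are to be read beside these counts. The median log2 ratio over all genes was -0.12, and TMM scaling, which centres on the bulk of genes, moved ratios up by 0.16 on the log2 scale. With it 796 genes were higher and 696 lower, so the split of calls depended on the scaling, and 28.9% of calls were higher without it and 53.4% with it. The 24 genes named by rank kept their direction with TMM and with median-of-ratios scaling. Highest were cycling genes, Egr4, Il1rl1, Timp1 and Il11, and lowest were Inmt, Cpxm2, Comp, Cxcl14, Igfbp3 and H19.

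**Figure D3:**
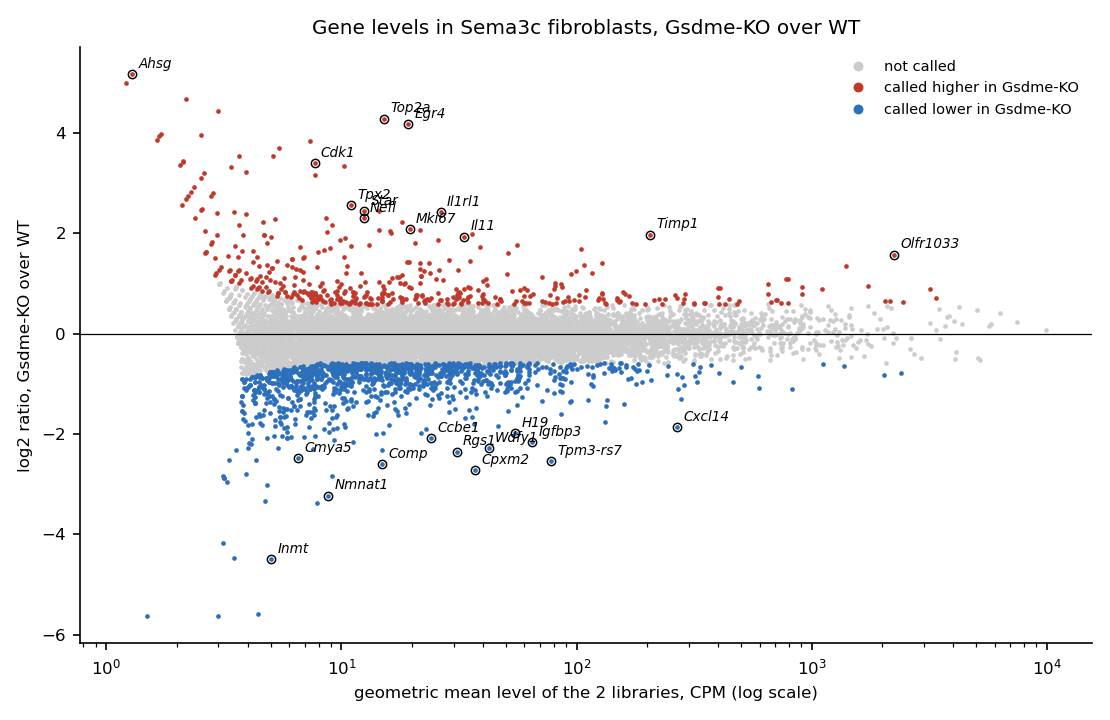
Log2 ratio of Gsdme-KO over WT in Sema3c fibroblasts against the geometric mean level in CPM (log axis) for each tested gene with UMIs in both libraries; called genes are red (higher) and blue (lower), and circles mark the 12 genes named each way. Called genes with high levels are few, and Olfr1033, Timp1 and Cxcl14 stand out among them.

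Proliferation genes were higher in Gsdme-KO Sema3c fibroblasts. Of 27 listed cell cycle genes 23 could be tested, and 15 were higher and 0 lower, with a median log2 ratio of 2.09 against -0.12 over all genes. Top2a (ENSMUSG00000020914, chr11:98992943-99024189, minus strand), the topoisomerase that untangles replicated DNA, had 631 UMIs in Gsdme-KO and 16 in WT, at 67.0 and 3.44 CPM. Its ratio was 19.5 (11.9 to 34.3), and 9.98% of Gsdme-KO and 1.86% of WT cells held it. Cdk1, the mitotic kinase, stood at 24.96 CPM in Gsdme-KO and 2.37 CPM in WT (ratio 10.6, 5.79 to 21.4). Mki67, the Ki-67 gene, stood at 40.2 CPM in Gsdme-KO and 9.46 CPM in WT (ratio 4.24, 3.10 to 5.94), and Tpx2, a spindle assembly factor, at 26.8 CPM in Gsdme-KO and 4.52 CPM in WT (ratio 5.93, 3.79 to 9.74). Every one of these 4 mitotic genes was several fold higher in Gsdme-KO. Cenpf, Ube2c, Ccna2 and Birc5, which also act in mitosis, were called higher with ratios between 11.6 and 21.6. Genes of replication and G1 among those not called were Pcna, the replication clamp, which stood at 140.3 CPM in Gsdme-KO and 114 CPM in WT (ratio 1.23), Ccnd2, a G1 cyclin, at 187 CPM in Gsdme-KO and 146 CPM in WT, and Cdkn1a, the p21 inhibitor, at 217 CPM in Gsdme-KO and 269.9 CPM in WT (ratio 0.806).

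The cycling counts came from few cells. At 2000 UMIs, at least 2 of 10 cycling genes (Mki67, Top2a, Cdk1, Ccnb1, Ccnb2, Ccna2, Birc5, Ube2c, Cenpf and Tpx2) were found in 28 of 771 cells (3.63%, 2.43% to 5.21%) in Gsdme-KO and in 1 of 447 cells (0.224%, 0.00566% to 1.24%) in WT. C7 fibroblasts had 2.38% in Gsdme-KO and 0.5% in WT. Neutrophil-marker cells, which do not divide and of which 346 in Gsdme-KO and 315 in WT were deep enough, had 0.867% in Gsdme-KO and 0.317% in WT, with intervals of 0.179% to 2.51% and 0.00804% to 1.76%. The WT share in Sema3c fibroblasts was at or below this background, and the interval of the Gsdme-KO share overlapped it slightly. At least 1 of the 10 genes was found in 8.30% of Gsdme-KO and 5.82% of WT Sema3c fibroblasts, below the 11.6% in Gsdme-KO and 8.89% in WT of neutrophil-marker cells. Without thinning the shares were 7.54% in Gsdme-KO and 3.10% in WT. The 28 Gsdme-KO cells had a median of 19761 UMIs, against 10745 in the rest. Within that library their Il11 level was 3.18 times that of the rest (1.40 to 6.37), from 9 UMIs after thinning. Timp1 was at 1.69 times (1.13 to 2.45) and Pi16 at 0.476 times (0.318 to 0.686). For Egr4 and Serpinb2 the intervals included 1. Outside fibroblasts Top2a stood at 74.95 CPM in Gsdme-KO and 80.9 CPM in WT (ratio 0.926). In C7 fibroblasts the ratio was 7.52 for Top2a, 4.68 for Cdk1, 2.20 for Tpx2 and 1.68 for Mki67. Without the cells that held 3 macrophage markers, 13 of 20 tested list genes were higher and 1 was lower, and the Mki67 ratio was 7.35. When cells were thinned before the rule was applied, 3 list genes had enough UMIs to be tested and 0 were called, while Top2a, with fewer UMIs than that minimum, had a ratio of 7.80 (2.48 to 39.5).

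Promoters of the leading cycling genes hold motifs known from cell cycle genes. Windows of 300 bases, from 250 before to 50 after the annotated start, were taken from RefSeq on GRCm38.p6, and 18 of the 23 tested list genes had one. The letters TTTGAA are the cell cycle genes homology region. They were found on either strand in 9 of these 18 genes and in 17.9% of 32851 windows of all genes. The letters CCAAT were found in 15 of the 18 genes and in 37.4% of all windows. A gene counted if any window of it held the letters, so shares of genes and of windows are not on the same scale. Among the 12 called genes with a window, 8 held TTTGAA and 10 held CCAAT. The Top2a and Cdk1 windows are shown because these genes lead the list, at chr11:99024140-99024439 and chr10:69352863-69353162, both on the minus strand and written 5′ to 3′ along the gene, with TTTGAA and CCAAT of either strand in capitals. A match is a description of the letters, not a bound site. The Top2a window holds 2 TTTGAA and 6 CCAAT, and the Cdk1 window 2 TTTGAA and 3 CCAAT.
Top2a: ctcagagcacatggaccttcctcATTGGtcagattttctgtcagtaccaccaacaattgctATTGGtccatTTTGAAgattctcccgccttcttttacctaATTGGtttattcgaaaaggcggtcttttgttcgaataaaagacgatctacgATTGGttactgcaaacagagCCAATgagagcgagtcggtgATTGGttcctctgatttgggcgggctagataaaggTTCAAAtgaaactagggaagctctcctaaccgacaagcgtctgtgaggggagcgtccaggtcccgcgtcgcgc
Cdk1: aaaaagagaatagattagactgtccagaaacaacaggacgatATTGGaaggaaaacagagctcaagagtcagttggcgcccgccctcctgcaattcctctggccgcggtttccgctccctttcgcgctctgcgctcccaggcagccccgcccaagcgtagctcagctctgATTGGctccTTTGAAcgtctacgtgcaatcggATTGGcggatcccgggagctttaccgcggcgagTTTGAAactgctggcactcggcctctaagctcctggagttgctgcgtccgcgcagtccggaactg

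Interferon gamma response genes leaned lower in Gsdme-KO. Of 25 listed 23 could be tested, 0 were higher and 12 lower, with a median log2 ratio of -0.62. Irgm1, an immunity-related GTPase, stood at 36.6 CPM in Gsdme-KO and 82.4 CPM in WT (ratio 0.445, 0.384 to 0.516), and Irf1, a transcription factor of the response, at 200.1 CPM in Gsdme-KO and 407 CPM in WT (ratio 0.491, 0.461 to 0.524). Igtp, another GTPase of the family, stood at 19.01 CPM in Gsdme-KO and 33.8 CPM in WT (ratio 0.563, 0.452 to 0.702), and Irgm2 at 58.2 CPM in Gsdme-KO and 109.9 CPM in WT (ratio 0.530). Each of the 4 was also lower in C7 fibroblasts, with ratios of 0.439, 0.653, 0.519 and 0.591. Cxcl10, a chemokine of the response, stood at 159 CPM in Gsdme-KO and 223 CPM in WT (ratio 0.712) and was not called. Under TMM scaling 8 of the 23 were lower and 0 higher. Macrophage markers were also lower in Gsdme-KO (297 against 543 CPM), and without the cells that held 3 of them 12 of 22 tested genes were lower and 0 higher. MHC class I genes, which present peptides to CD8 T cells, were lower in 5 of 16, with 0 higher, and lower in 2 under TMM. H2-K1, a classical heavy chain, stood at 1098 CPM in Gsdme-KO and 1705 CPM in WT (ratio 0.644, and 0.721 under TMM), whereas B2m, the light chain, stood at 2075 CPM in Gsdme-KO and 1959.8 CPM in WT (ratio 1.06) and was not called. Of 27 genes of the type I interferon response, 1 was higher and 4 lower, and 2 were higher and 2 lower under TMM scaling.

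Windows of 18 of the 23 interferon gamma genes were found. The letters GAAANNGAAA, as in interferon-stimulated response elements, stood on either strand in 9 of the 18 genes and in 3.44% of all windows. The letters TTCNNNGAA, as in STAT sites, stood in 7 of the 18 genes and in 8.30% of all windows. Here too a gene counted if any window of it held the letters, so shares of genes and of windows are not on the same scale. Among the 7 called genes with a window, 3 held the first motif and 4 the second, so the motifs were not confined to called genes. The windows of Irgm1 (chr11:48871371-48871670, minus strand) and Igtp (chr11:58199306-58199605, plus strand) are shown, since these GTPases carry the motifs and were both called lower. Capitals mark both motifs on either strand. The Irgm1 window holds 2 overlapping GAAANNGAAA and 0 TTCNNNGAA, and the Igtp window holds 1 of each.
Irgm1: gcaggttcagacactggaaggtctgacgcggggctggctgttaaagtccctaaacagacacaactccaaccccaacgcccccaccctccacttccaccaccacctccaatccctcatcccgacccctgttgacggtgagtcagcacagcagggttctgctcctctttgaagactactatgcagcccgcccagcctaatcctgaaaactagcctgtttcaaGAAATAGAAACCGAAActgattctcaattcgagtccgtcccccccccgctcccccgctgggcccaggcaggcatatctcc
Igtp: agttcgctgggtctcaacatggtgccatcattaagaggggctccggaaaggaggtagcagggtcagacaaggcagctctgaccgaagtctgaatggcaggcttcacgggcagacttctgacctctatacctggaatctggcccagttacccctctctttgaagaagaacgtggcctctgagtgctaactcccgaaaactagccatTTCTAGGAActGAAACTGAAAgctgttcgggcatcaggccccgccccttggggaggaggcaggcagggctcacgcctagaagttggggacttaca

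Several protease inhibitors were higher in Gsdme-KO. Timp1 (ENSMUSG00000001131, chrX:20870166-20874735, plus strand), a secreted inhibitor of matrix metalloproteinases whose span overlaps Syn1 on the other strand, had 3838 UMIs in Gsdme-KO and 482 in WT, at 408 and 104 CPM. The ratio was 3.93 (3.58 to 4.33), and 4.31 (3.91 to 4.76) in C7 fibroblasts. At 2000 UMIs it was found in 296 of 771 cells (38.4%, 34.9% to 41.9%) in Gsdme-KO and in 59 of 447 cells (13.2%, 10.2% to 16.7%) in WT, so both the share of cells and the level were higher. Outside fibroblasts Timp1 was lower in level but also higher in Gsdme-KO, at 41.0 against 14.9 CPM (ratio 2.75, 2.47 to 3.07). Of 17 tested inhibitors 6 were higher and 1 lower, and under TMM 7 and 1. Timp3, which binds to the matrix, stood at 892 CPM in Gsdme-KO and 562 CPM in WT (ratio 1.59, 1.52 to 1.66), and Serpina3n, a serine protease inhibitor, at 560.0 CPM in Gsdme-KO and 296 CPM in WT (ratio 1.89, 1.78 to 2.01). Slpi, an inhibitor of neutrophil elastase, stood at 148 CPM in Gsdme-KO and 81.1 CPM in WT (ratio 1.83). Timp2 stood at 3626 CPM in Gsdme-KO and 4664 CPM in WT (ratio 0.778) and was not called. Reck, a membrane-anchored inhibitor, was the gene called lower (0.593).

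Of 30 tested matrix proteases, 0 were higher and 6 lower, beside shares of 4.2% and 10.3% over all genes. After thinning 1 of 24 was higher and 4 were lower. Mmp13, a collagenase, stood at 0.744 CPM in Gsdme-KO and 16.6 CPM in WT (ratio 0.0449, 0.0175 to 0.0970) and Mmp11 at 33.99 CPM in Gsdme-KO and 91.2 CPM in WT (ratio 0.373). Adamts5, an aggrecanase, stood at 1439.9 CPM in Gsdme-KO and 1952 CPM in WT and Mmp2, a gelatinase, at 1185 CPM in Gsdme-KO and 1151 CPM in WT, and neither was called. Among proteases carried by leukocytes, Mmp9 (0.288) and the cathepsin gene Ctss (0.524) were also lower, beside the lower leukocyte markers. Col1a1, a chain of type I collagen, stood at 10175 CPM in Gsdme-KO and 9679 CPM in WT and was not called, while 5 of 23 collagen genes were lower and 1 higher. Col11a1, a minor fibrillar chain, stood at 1.49 CPM in Gsdme-KO and 15.1 CPM in WT (ratio 0.0988), Col6a6 had a ratio of 0.343 and Col28a1 of 2.82. Of 20 elastic fibre genes 2 were higher and 1 lower, Ltbp4 (126 CPM in Gsdme-KO and 233 CPM in WT). Among proteoglycans and hyaluronan genes, 2 of 20 were higher and 6 lower: Has2, the hyaluronan synthase, stood at 169.6 CPM in Gsdme-KO and 97.6 CPM in WT (ratio 1.74), and Ogn at 563 CPM in Gsdme-KO and 1215 CPM in WT (ratio 0.464) and Fmod at 18.7 CPM in Gsdme-KO and 60 CPM in WT (ratio 0.312), both small leucine-rich proteoglycans. The Fmod ratio was 0.421 (0.327 to 0.538) within that small set and 0.649 (0.456 to 0.928) in the remaining cells.

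Of 24 genes of myofibroblasts and TGF-beta targets, 3 were higher and 5 lower, beside shares of 4.2% and 10.3% over all genes. Cthrc1, a secreted protein of injured arteries, stood at 208 CPM in Gsdme-KO and 78.7 CPM in WT (ratio 2.64, 2.36 to 2.96), Ccn2, connective tissue growth factor, at 514 CPM in Gsdme-KO and 308 CPM in WT (ratio 1.67) and Inhba, the activin A subunit, at 49.0 CPM in Gsdme-KO and 20.2 CPM in WT (ratio 2.42). Those 3 were the ones called higher. Fap, a stromal protease, stood at 41.0 CPM in Gsdme-KO and 77.8 CPM in WT (ratio 0.527) and Tgfbi had a ratio of 0.317, while Postn, the periostin gene, stood at 1048 CPM in Gsdme-KO and 1035 CPM in WT and was not called. TGF-beta ligands and receptors gave 0 higher and 1 lower of 16, and 2 higher and 0 lower under TMM.

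Genes of secreted inflammatory signals split by gene. Of 20 tested chemokines 7 were higher and 5 lower, and without the cells that held 3 macrophage markers 8 of 19 were higher and 5 lower. Ccl2, which attracts monocytes, stood at 2243 CPM in Gsdme-KO and 878 CPM in WT (ratio 2.56, 2.47 to 2.64), Ccl7, its near relative, at 1161 CPM in Gsdme-KO and 542 CPM in WT (ratio 2.14, 2.05 to 2.24), and Cxcl1, which attracts neutrophils, at 4313 CPM in Gsdme-KO and 2335 CPM in WT (ratio 1.85, 1.81 to 1.89). All 3 were also higher in C7 fibroblasts, at ratios of 3.85, 2.61 and 2.01. Cxcl13, which attracts B cells, stood at 380.5 CPM in Gsdme-KO and 219 CPM in WT (ratio 1.74) in Sema3c fibroblasts and had a ratio of 0.932 in C7 fibroblasts. Ccl3 and Ccl4, which leukocytes express far more strongly, were lower, with ratios of 0.526 and 0.441. Across cells, levels of Ccl2 and Cxcl1 had a correlation of 0.57 over 822 Gsdme-KO and 0.50 over 484 WT cells, which share a library and vary in depth.

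Of 29 tested genes of the IL-6 family and of inflammatory cytokines, 5 were higher and 9 lower, and without those cells 5 of 27 were higher and 8 lower. Il11 (ENSMUSG00000004371, chr7:4772373-4782859, minus strand), an IL-6 family cytokine made by stromal cells, stood at 65.0 CPM in Gsdme-KO and 17.0 CPM in WT (ratio 3.83, 3.02 to 4.90). It was found in 15.2% of Gsdme-KO and 3.10% of WT cells, and its ratio was 6.76 (4.82 to 9.76) in C7 fibroblasts. Lif, leukemia inhibitory factor, stood at 89.4 CPM in Gsdme-KO and 29.5 CPM in WT (ratio 3.04, 2.53 to 3.66), and its receptor gene Lifr at 42.2 CPM in Gsdme-KO and 89.9 CPM in WT (ratio 0.469). Socs3, a feedback inhibitor that this family induces, stood at 184 CPM in Gsdme-KO and 398 CPM in WT (ratio 0.462, 0.433 to 0.494). The 2 ligands were thus higher, and the receptor and the feedback gene lower. Il6 stood at 1114 CPM in Gsdme-KO and 792 CPM in WT (ratio 1.41) and was not called. Il1b and Tnf were lower, with ratios of 0.406 and 0.328, but reached only 2.16% and 3.34% of their level in the cell group where they are highest. Il1rl1, the receptor of interleukin 33, stood at 61.2 CPM in Gsdme-KO and 11.4 CPM in WT (ratio 5.37, 4.05 to 7.25), and in C7 fibroblasts at 16.5 and 6.74 CPM (ratio 2.44, 1.58 to 3.92). It was found in 14.0% of Gsdme-KO and 4.13% of WT Sema3c fibroblasts.

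Among 30 immediate early genes, which cells induce within minutes to hours of a stimulus and also during dissociation, 6 were higher and 2 lower. Egr4 (ENSMUSG00000071341, chr6:85511121-85513589, minus strand), a transcription factor of the EGR family, had 772 UMIs in Gsdme-KO and 21 in WT, at 82.0 and 4.52 CPM (ratio 18.2, 11.8 to 29.5). It was in 10.1% of Gsdme-KO and 0.826% of WT cells. In C7 fibroblasts it stood at 29.3 CPM in Gsdme-KO and had 0 UMIs in WT, with a lower interval end of 29.2 for the ratio. With 3 counts in place of 0 the ratio there was 36.2. Its ratio in Sema3c fibroblasts was 112 (31.0 to 931) without the cells that held 3 macrophage markers and 9.04 (2.90 to 45.5) after thinning, and outside fibroblasts it was 5.51. Egr3 stood at 153 CPM in Gsdme-KO and 64.3 CPM in WT (ratio 2.38), Fosl1, an AP-1 subunit, at 105 CPM in Gsdme-KO and 48.0 CPM in WT (ratio 2.19) and the orphan nuclear receptor gene Nr4a2 at 546 CPM in Gsdme-KO and 291 CPM in WT (ratio 1.88). Egr1, which dissociation also induces, stood at 4333 CPM in Gsdme-KO and 6214 CPM in WT (ratio 0.697), was not called and ran opposite to Egr3 and Egr4. Klf2, a flow-responsive factor in endothelium, was lower at 203 CPM in Gsdme-KO and 354 CPM in WT (ratio 0.573), with a ratio of 1.01 in C7 fibroblasts.

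Growth factor genes gave 6 higher and 9 lower of 34 tested, and 8 higher and 6 lower under TMM scaling. Ereg, epiregulin, stood at 102 CPM in Gsdme-KO and 30.3 CPM in WT (ratio 3.38, 2.83 to 4.06), and Hbegf, a second ligand of the EGF receptor, at 83.2 CPM in Gsdme-KO and 45.4 CPM in WT (ratio 1.83). Vegfa, an angiogenic factor, stood at 269 CPM in Gsdme-KO and 169 CPM in WT (ratio 1.596) and Fgf7 at 102 CPM in Gsdme-KO and 66.2 CPM in WT (ratio 1.53). These 4 were among those called higher, while Fgf10 had a ratio of 0.584 and was called lower. Igf1 stood at 790.3 CPM in Gsdme-KO and 796 CPM in WT (ratio 0.993). Within the BMP and activin list 3 of 21 were higher and 3 lower, with Bmp2 at 40.4 CPM in Gsdme-KO and 16.8 CPM in WT (ratio 2.41) and Bmp4 at a ratio of 0.359. Of 22 Wnt genes 1 was higher and 7 were lower. Wnt2, the one called higher, stood at 47.4 CPM in Gsdme-KO and 17.2 CPM in WT (ratio 2.75, 2.17 to 3.54), while Wnt5a, a non-canonical ligand, stood at 8.18 CPM in Gsdme-KO and 24.1 CPM in WT (ratio 0.340; 1.53 in C7 fibroblasts) and Sfrp1 at 396 CPM in Gsdme-KO and 629 CPM in WT (ratio 0.629; 1.25 in C7 fibroblasts).

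IGF binding and imprinted genes leaned lower. Of 22 tested, 1 was higher and 9 lower, with a median log2 ratio of -0.46, and 8 were lower and 1 higher under TMM. H19 (ENSMUSG00000000031, chr7:142575529-142578143, minus strand), a maternally expressed long non-coding RNA, stood at 27.7 CPM in Gsdme-KO and 109 CPM in WT (ratio 0.254, 0.218 to 0.296), and Igfbp3, the main carrier of circulating IGF, at 30.6 CPM in Gsdme-KO and 137 CPM in WT (ratio 0.223, 0.194 to 0.257). The paternally expressed genes Mest at 11.0 CPM in Gsdme-KO and 43.4 CPM in WT (ratio 0.254), Peg3 at 18.4 CPM in Gsdme-KO and 43.2 CPM in WT (ratio 0.425) and Dlk1 at 4.46 CPM in Gsdme-KO and 19.4 CPM in WT (ratio 0.230) were lower too, as was the maternally expressed cell cycle inhibitor gene Cdkn1c at 100.1 CPM in Gsdme-KO and 173 CPM in WT (ratio 0.579). Genes of either parental allele thus ran the same way. H19 was found in 8.39% of Gsdme-KO and 12.4% of WT cells, and without any cell holding a negative gene of the rule its ratio was 1.07. Igfbp7 was higher at 3055 CPM in Gsdme-KO and 1967 CPM in WT (ratio 1.55), and Igfbp5 was not called (1256 CPM in Gsdme-KO and 1734 CPM in WT, ratio 0.724).

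The minority genes of the Col8a1 and Cxcl14 type gave several of the lowest ratios. Cxcl14 (ENSMUSG00000021508, chr13:56288643-56296551, minus strand), a chemokine gene, had 1326 UMIs in Gsdme-KO and 2383 in WT, at 141 and 512 CPM, a ratio of 0.275 (0.257 to 0.294). In C7 fibroblasts it stood at 705 CPM in Gsdme-KO and 659 CPM in WT (ratio 1.07, 1.02 to 1.12), so the ratio of ratios was 0.257 (0.237 to 0.279). Comp, cartilage oligomeric matrix protein, stood at 6.05 CPM in Gsdme-KO and 36.6 CPM in WT (ratio 0.166, 0.120 to 0.225), with a ratio of 1.16 (1.02 to 1.32) in C7 fibroblasts. Cpxm2, a carboxypeptidase-like protein whose span overlaps Fgfr2, stood at 14.4 CPM in Gsdme-KO and 95.5 CPM in WT (ratio 0.151, 0.124 to 0.184), with a ratio of 0.581 (0.531 to 0.637) in C7 fibroblasts. All 3 were lower in Gsdme-KO Sema3c fibroblasts by more than in C7 fibroblasts. Ratios were also taken within the cells that held at least 3 of the 7 genes. They were 0.537 (0.493 to 0.583) for Cxcl14, 0.260 (0.180 to 0.369) for Comp and 0.277 (0.223 to 0.341) for Cpxm2. In the remaining cells they were 0.263 (0.234 to 0.296), 0.624 (0.277 to 1.445) and 0.298 (0.164 to 0.530). The Comp ratio there rested on 16 UMIs in Gsdme-KO and 12 in WT, and its interval included 1. These genes define the set, so the ratios inside and outside it depend on that choice of cells. Col8a1, of the same set, stood at 424 CPM in Gsdme-KO and 358 CPM in WT over the cells deep enough for thinning, with ratios of 1.67 within the set and 2.53 outside it. Within the set the ratio was 1.24 (1.07 to 1.43) for Thbs4, 0.834 (0.677 to 1.03) for Itgbl1 and 0.853 (0.771 to 0.943) for Mgp. Outside it these ratios were 0.756, 0.617 and 0.634, so the 7 genes did not share 1 direction or size within the set. When the rule was applied after thinning, the Cxcl14 ratio was 0.803 and the call was lost.

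The genes that typify these cells were not lower as a list. Of 28 tested genes of the Pi16 and Dpp4 type, 6 were higher in Gsdme-KO and 4 lower. Ly6c1 stood at 2422 CPM in Gsdme-KO and 1255 CPM in WT (ratio 1.93), Ly6a at 4328 CPM in Gsdme-KO and 2655 CPM in WT (ratio 1.63), Gfpt2, of the hexosamine pathway, at 2563 CPM in Gsdme-KO and 1635 CPM in WT (ratio 1.57) and Prg4, the lubricin gene, at 1130.2 CPM in Gsdme-KO and 533 CPM in WT (ratio 2.12). Dpp4 stood at 299.6 CPM in Gsdme-KO and 462 CPM in WT (ratio 0.648, 0.613 to 0.686), Tek at 62.7 CPM in Gsdme-KO and 116 CPM in WT (ratio 0.539) and Smpd3, a neutral sphingomyelinase, at 70.7 CPM in Gsdme-KO and 178 CPM in WT (ratio 0.398). At 2000 UMIs Dpp4 was found in 333 of 771 cells (43.2%, 39.7% to 46.8%) in Gsdme-KO and in 238 of 447 cells (53.2%, 48.5% to 57.9%) in WT. Clec3b, tetranectin, is a gate gene of the rule and is given as a description: it stood at 233 CPM in Gsdme-KO and 683 CPM in WT, at 218 and 588 CPM in C7 fibroblasts, and had a ratio of 0.451 outside fibroblasts.

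**Figure D4:**
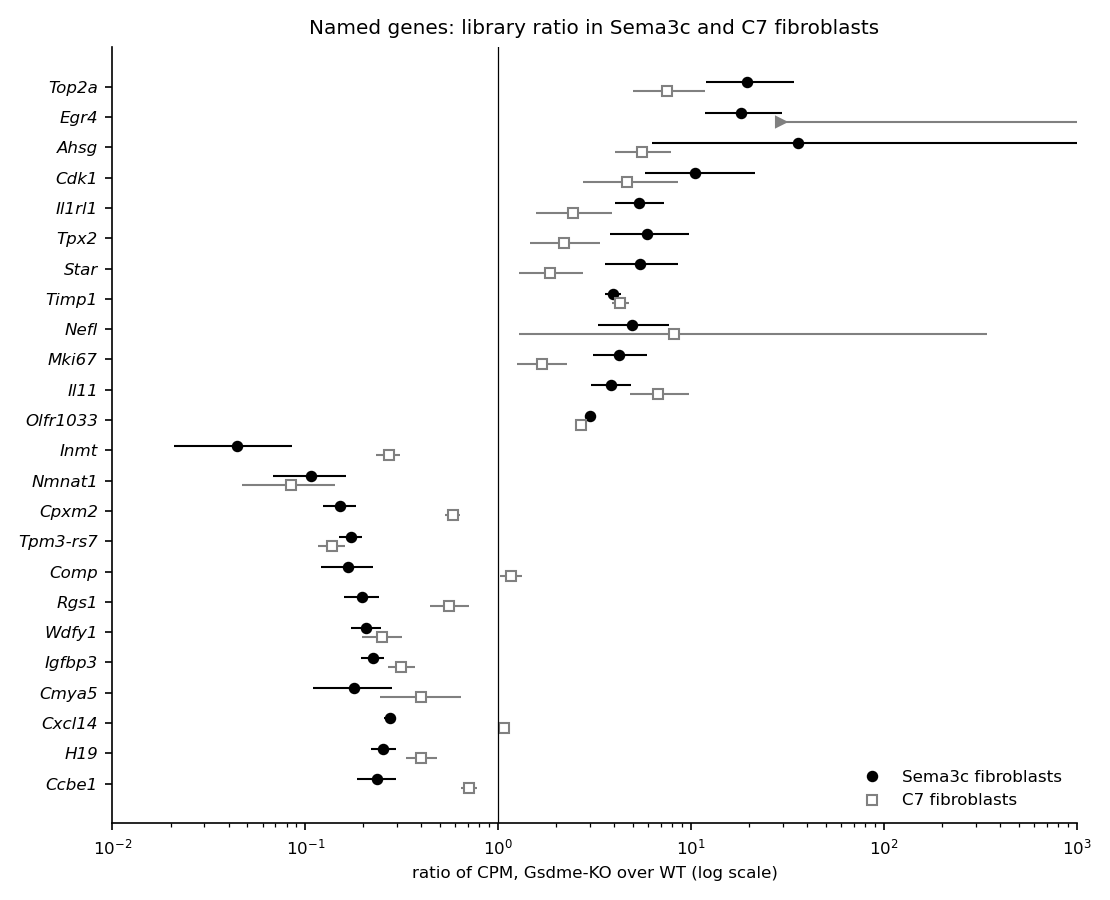
Ratio of CPM, Gsdme-KO over WT (log axis), for the 12 genes named each way, in Sema3c fibroblasts (black circles) and C7 fibroblasts (grey squares), with exact 95% intervals for counting error cut at the right edge; the triangle marks the lower interval end of Egr4 in C7 fibroblasts, where WT had 0 UMIs. Ratios of Comp and Cxcl14 lie below 1 in Sema3c fibroblasts and above 1 in C7 fibroblasts.

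The other genes named by rank had several kinds of role. Olfr1033, annotated as an olfactory receptor gene, stood at 3862 CPM in Gsdme-KO and 1297 CPM in WT (ratio 2.98, 2.90 to 3.06), at a ratio of 2.68 in C7 fibroblasts and 1.64 outside fibroblasts, and overlaps no other annotated gene. Star, which carries cholesterol into mitochondria, stood at 29.2 CPM in Gsdme-KO and 5.38 CPM in WT (ratio 5.43, 3.603 to 8.54), Nefl, a neurofilament chain, at 27.6 CPM in Gsdme-KO and 5.59 CPM in WT (ratio 4.94, 3.29 to 7.70), and Ahsg, the liver protein fetuin A, at 7.75 CPM in Gsdme-KO and 0.215 CPM in WT with only 1 UMI in WT (ratio 36.1, 6.27 to 1443). Inmt, a methyltransferase, had 10 UMIs in Gsdme-KO and 111 in WT (ratio 0.0445, 0.0208 to 0.0849), a ratio of 0.270 in C7 fibroblasts and of 0.307 outside fibroblasts. Nmnat1, which makes NAD in the nucleus, stood at 2.87 CPM in Gsdme-KO and 26.9 CPM in WT (ratio 0.107, 0.0676 to 0.163), with 0.0842 in C7 fibroblasts and 0.137 outside them. Wdfy1 at 19.2 CPM in Gsdme-KO and 93.3 CPM in WT (ratio 0.206; 0.340 outside fibroblasts) and Tpm3-rs7 at 32.3 CPM in Gsdme-KO and 188 CPM in WT (ratio 0.172; 0.144 outside) ran the same way, also in C7 fibroblasts (ratios 0.251 and 0.137). The differences in Nmnat1, Wdfy1, Tpm3-rs7 and Olfr1033 were thus seen outside fibroblasts too. Tpm3-rs7 is a near copy of Tpm3, so its counts are uncertain, and by annotated span Nmnat1 overlaps Tmem274, Wdfy1 overlaps Mrpl44 and Nefl overlaps Nefm. Rgs1, a regulator of G protein signalling that leukocytes also carry, had a ratio of 0.196, Cmya5 of 0.178 and Ccbe1, needed for lymphatic growth, of 0.235.

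Complement, lipid and adhesion genes leaned lower by calls, while the other lists named here had fewer genes called lower. By median log2 ratio the retinoid list, at -0.39, lay below the lipid (-0.27) and adhesion (-0.19) lists. Complement was at -0.46, beside -0.12 over all genes. Of 22 complement genes 0 were higher and 7 lower, of which C1qa, C1qb and C1qc are macrophage markers. Without the cells that held 3 macrophage markers 0 of 21 were higher and 7 lower, beside 1019 lower of 9994 over all genes. Cells with fewer of these markers stayed in, so the part of macrophage RNA was not tested. C3 at 1699 CPM in Gsdme-KO and 2542 CPM in WT and Serping1 at 2234 CPM in Gsdme-KO and 2206 CPM in WT were not called. Of 20 lipid genes 0 were higher and 6 lower: Lpl stood at 441 CPM in Gsdme-KO and 788 CPM in WT (ratio 0.560) and Apod, apolipoprotein D, at 71.7 CPM in Gsdme-KO and 242 CPM in WT (ratio 0.297; 0.991 in C7 fibroblasts). Of 23 adhesion genes 1 was higher, Pdpn, the podoplanin gene, at 523 CPM in Gsdme-KO and 348 CPM in WT, and 7 were lower, among them Itga4 and Cdh11 with ratios of 0.530 and 0.619. Gpx3, a secreted glutathione peroxidase, stood at 411 CPM in Gsdme-KO and 869.9 CPM in WT (ratio 0.473) and Hspb1, a small heat shock protein, at 915 CPM in Gsdme-KO and 463 CPM in WT (ratio 1.98). In the retinoid list Crabp2, a retinoic acid carrier, had a ratio of 2.82 and Rarb, a receptor that retinoic acid induces, of 0.429, with 2 of 15 genes higher and 3 lower (3 and 2 under TMM). Of 28 HOX and positional genes 3 were higher and 3 lower, Meox1 with a ratio of 4.94 and Tbx15 with 0.380. Of 24 genes of gasdermins and cell death 0 were higher and 3 lower, Bcl2, Bcl2l1 and Nlrp3, with ratios of 0.607, 0.542 and 0.377. Heat shock genes gave 1 higher and 2 lower of 22 (3 and 1 under TMM), glycolysis and hypoxia genes 3 and 1 of 23, prostaglandin genes 1 and 3 of 16, acute phase and oxidative stress genes 2 and 2 of 20, and semaphorin and axon guidance genes 0 and 4 of 24.

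**Figure D5:**
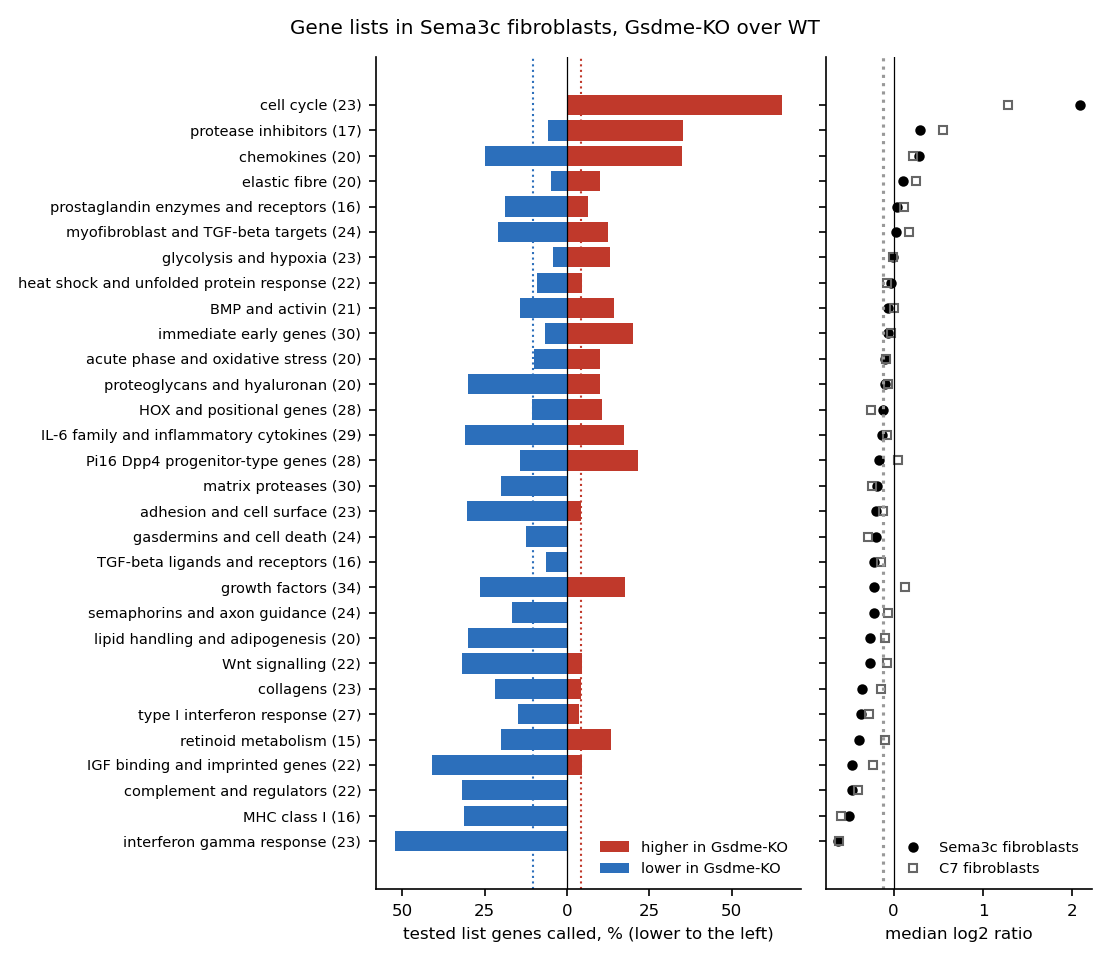
Left, percent of tested genes of each list (number tested in brackets) called higher (red, to the right) or lower (blue, to the left) in Gsdme-KO Sema3c fibroblasts, with dotted lines at 4.2% and 10.3%, the shares over all genes; right, the list's median log2 ratio in Sema3c fibroblasts (circles) and C7 fibroblasts (squares), with a dotted line at -0.12, the median over all genes. The cell cycle list lies far to the right at 2.09, and the interferon gamma list lowest at -0.62.

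For a minority of genes the library ratio differed between the 2 fibroblast groups. The ratio of ratios, Gsdme-KO over WT in Sema3c fibroblasts over the same in C7 fibroblasts, was called above 1 for 262 of 10037 genes (2.61%) and below 1 for 362 (3.61%), 6.22% in all. In the cell cycle list 8 of 20 genes were above and 1 below, with 2.59 (1.37 to 4.91) for Top2a and 2.52 (1.65 to 3.85) for Mki67. In the interferon gamma list 1 was above and 0 below, and in the growth factor list 3 were above and 7 below. Timp1 had a ratio of ratios of 0.912 (0.796 to 1.05), which includes 1. Il11 had 0.566 (0.375 to 0.854), so its library ratio was smaller in Sema3c fibroblasts. Serpinb2, plasminogen activator inhibitor 2, stood at 188 CPM in Gsdme-KO and 58.1 CPM in WT (ratio 3.23, 2.84 to 3.69), with a ratio of 1.23 in C7 fibroblasts and a ratio of ratios of 2.62 (1.94 to 3.54). Thbs4, a matricellular thrombospondin, was lower in Gsdme-KO in both groups, by less in Sema3c fibroblasts (ratio 0.628) than in C7 fibroblasts (0.228), which gave a ratio of ratios of 2.75 (1.72 to 4.39). Mmp12, macrophage elastase, had 16.5 (6.15 to 44.2) at 4.35 CPM in Gsdme-KO and 4.95 CPM in WT in Sema3c fibroblasts and 0.778 and 14.6 CPM in C7 fibroblasts. Mmp12 was thus separated by its WT level in C7 fibroblasts rather than by Sema3c fibroblasts. Upk3b, a mesothelial gene, stood at 27.2 CPM in Gsdme-KO and 64.1 CPM in WT (ratio 0.424, 0.358 to 0.503), and at 6.61 and 0.270 CPM in C7 fibroblasts. At least 3 mesothelial markers were found in 11 of 822 cells (1.34%) in Gsdme-KO and in 12 of 484 (2.48%) in WT, and without these cells the Upk3b ratio in Sema3c fibroblasts was 4.38. The Gpm6a ratio was then 1.36, and Pkhd1l1 had 0 UMIs in WT. The directions of these 3 differences thus turned with these cells. Upk3b is itself 1 of the mesothelial markers used to leave them out, so its ratio without them is no separate finding. Across cells Upk3b and Gpm6a had a correlation of 0.96 over 822 Gsdme-KO cells and 0.98 over 484 WT cells.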

How the data were processed

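The deposited matrices of the 2 libraries held whole-number UMI counts per gene and cell, as the authors deposited them, 1 matrix per library. According to the submitters' processing notes, CASAVA 1.8 and STARsolo were used with the genome build mm10; their cell filters are not given in the sources used here. Per the values in the deposited files, 9034 barcodes with 52532964 UMIs in Gsdme-KO and 7736 barcodes with 38988898 UMIs in WT were held, of which 8784 and 7619 passed the stated filters, with medians of 4062 and 3835 UMIs. Counts were summed per library and cell group with Python 3.11.15, numpy 2.4.6, pandas 2.3.3 and scipy 1.17.1, and scaled to CPM. CPM had exact Poisson intervals, ratios exact conditional binomial intervals, shares Clopper-Pearson intervals, and ratios of ratios log-scale intervals, all at 95%. Genes with at least 50 UMIs over both libraries were tested, without the 25 genes of the rule and mitochondrial genes. Ratios were also computed with TMM factors (edgeR 4.0.16) and other cell filters, and Scrublet ran in scanpy 1.11.5. The intervals were tested on simulated independent Poisson counts, which is what the intervals assume. Variation between cells or mice was not simulated. Thinning used a fixed seed.

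Genes were named by rank. Between libraries these were the 12 each way whose interval end was farthest from 1, among called genes in at least 5% of cells of the higher library and at 10% or more of the level of the highest cell group. Against C7 fibroblasts they were the 10 each way, by ratio of ratios the 5 each way, and by Fano factor the 12 highest. Left out were gene models named Gm or Rik, Xist and Y-linked genes, and those of ribosomes, mitochondria, haemoglobin and receptor segments. From each of the 30 gene lists those with high levels or large differences were named, and some further list genes were chosen after their values were seen. Some genes that these rules name are not reported here. The members, lists and markers were chosen with earlier results of these data known. Of 31253 gene identifiers, 31107 matched GENCODE M21, from which positions and overlaps were taken. Whether strand was used in counting is not given in those notes, so genes that overlap on either strand cannot be told apart.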

Additional observations from a re-analysis of the deposited data

Results flagged for a closer look

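Several genes had library ratios that ran in opposite directions in Sema3c fibroblasts and C7 fibroblasts. With 1 library per group the difference was not tested, and the ratio of ratios is given with an interval for counting error. In each case the ratio in Sema3c fibroblasts comes first.

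Comp and Cxcl14 had ratios of 0.166 and 0.275, and ratios of 1.16 and 1.07 in C7 fibroblasts. The Wnt genes Wnt5a and Sfrp1 had 0.340 and 0.629, against 1.53 and 1.25. Fgf1, a growth factor, had 0.657 against 1.52, and Gas6, a ligand of Axl, had 0.646 against 1.14. Plagl1, an imprinted transcription factor gene, had 0.660 against 1.38, the lectin pathway protease gene Masp1 0.476 against 1.58, and Ptgfr, the receptor of prostaglandin F2 alpha, 0.387 against 1.73. All of these were lower in Gsdme-KO Sema3c fibroblasts.

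Lepr, the leptin receptor gene, ran the other way, with a ratio of 2.17 in Sema3c fibroblasts and 0.236 in C7 fibroblasts (ratio of ratios 9.19, 4.26 to 19.8). Its 57 UMIs in Gsdme-KO and 13 in WT came from 1.34% and 2.07% of cells. Zfp827 had 1.599 against 0.336 (ratio of ratios 4.75, 2.26 to 9.98). Its interval in Sema3c fibroblasts was 0.968 to 2.75, which includes 1, and it was not called there. When the rule was applied after thinning, its ratio in Sema3c fibroblasts was 0.739, so its direction there was not settled.

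Upk3b had a ratio of 0.424 in Sema3c fibroblasts against 24.5 in C7 fibroblasts, Gpm6a 0.498 against 6.37, and Car3 0.425 against 4.37. Pkhd1l1 had a ratio of 0.462 in Sema3c fibroblasts. WT C7 fibroblasts had 0 UMIs of Pkhd1l1, so the lower interval end in C7 fibroblasts was 7.32. With 3 counts in place of 0 the ratio there was 9.29. At least 3 mesothelial markers were held by 11 Sema3c fibroblasts in Gsdme-KO and 12 in WT. Without these cells the ratio in Sema3c fibroblasts was 4.38 for Upk3b, 1.36 for Gpm6a and 0.611 for Car3. Pkhd1l1 then had 0 UMIs in WT. The direction thus turned for Upk3b, Gpm6a and Pkhd1l1. Upk3b is itself 1 of the mesothelial markers, so its ratio without these cells is no separate finding.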

How the results depend on the processing

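Leaving out libraries was not possible with 1 per group. No paired analysis was possible because each group held 1 library. The share of kept cells had ratios of 1.42 to 1.59 under 7 alternatives, the last chosen after seeing the data (without cells with 3 mesothelial markers). It was 0.943 among cells with none of the 7 negative genes, and 0.667 as a share of gated fibroblasts. That alternative kept 50 and 46 cells, so 1886 genes were tested, with 188 higher and 203 lower. It gave 209 higher and 196 lower against C7 fibroblasts, and ratios of ratios above 1 for 161 and below 1 for 130 genes. H19 was at 1.07. Thinning to 2000 UMIs left 5155 genes tested, with 199 higher and 381 lower, 218 higher and 197 lower against C7 fibroblasts, and 120 above and 159 below by ratio of ratios. TMM gave 796 higher and 696 lower, and median-of-ratios factors 773 and 712. Without a minimum of UMIs, 449 ratios of ratios were above 1 and 557 below. Of the values under alternatives of the 24 genes named between libraries, 269 kept their direction and call, 10 kept direction without the call and 1 reversed. Calls lost after thinning were Ahsg (6.16), Mki67 (2.59), Cmya5, Cxcl14 (0.803) and Ccbe1 (0.732). Tpx2 (7.52), Nefl (4.30), Il11 (7.52), Cpxm2 (0.391) and Cmya5 lost theirs among cells with no negative gene, where intervals were wider. Fewer cells and UMIs were counted in both settings, and beyond that the cause was not tested.

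Depth limited low genes: 0 UMIs of 4650077 in WT Sema3c fibroblasts have an upper interval end of 0.793 CPM. Differences between mice, dissociation and library cannot be told apart from genotype in this design. Macrophage, neutrophil and T cell marker RNA differed between the libraries and doublets were not removed. Neither Pi16 nor Cd55 separated cells just inside the rule from those just outside in both libraries.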
